A study of Mus musculus with 48 samples.

Results

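The comparison set the hippocampus against the prefrontal cortex of wild-type (WT) mice aged 6 weeks (6W), and its members are the 8 sequenced samples that the labels give this genotype and age, 4 of hippocampus and 4 of prefrontal cortex. They are 8 of the 48 samples of a study that crossed both tissues with 2 genotypes and 3 ages. The other genotype lacked alkyladenine DNA glycosylase (Aag, encoded by Mpg), a base excision repair enzyme that removes alkylated bases, and is called the knockout (KO). The other ages were postnatal day 5 (P5) and an adult stage labelled 6M. All mice were male, and the labels give no treatment. The design text gives 4 animals per time point, fewer than the samples of an age, so samples may share an animal. Neither the strain nor the animal behind each sample is given in the sources used here. The p-values therefore measure the spread between samples, which was estimated within the groups of all 48 samples and not in these 8 alone. The RNA is from bulk tissue, so fewer cells of a type and less RNA per cell cannot be told apart in any value below.

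The hippocampus is an archicortical structure in which granule cells of the dentate gyrus project to pyramidal cells of field CA3, and these to field CA1, and it is known for spatial and episodic memory. The prefrontal cortex is neocortex, with layered excitatory neurons that project within the cortex from the upper layers and to subcortical targets from the deep layers, and it is known for planning and control of behaviour. Both contain GABA-releasing interneurons, astrocytes, oligodendrocytes, microglia and vessels, and each borders on tissue that a dissection can carry along: choroid plexus, ependyma and thalamus beside the hippocampus, and striatum and olfactory structures beside the frontal cortex.

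Total counts in the 8 libraries ranged from 21615824 to 29576938, and levels are given as CPM (read counts scaled to a common library size) after trimmed mean of M-values (TMM) normalisation. A floor of 3 counts corresponded to 0.103 to 0.149 CPM and reflects counting error alone, because the reads carry no identifiers of single molecules. Hippocampus replicate 1 stood apart, with 31.6% of its counts from mitochondrial genes against 15.7% to 21.2% in the other 7 libraries. Prefrontal replicates 2 and 4 stood apart in genes of striatal neurons, which sum to 1121 and 903 CPM there and to 287 and 389 CPM in replicates 1 and 3. Mpg itself was at 6.49, 4.496, 4.95 and 4.46 CPM in hippocampus replicates 1 to 4 and 5.58, 5.68, 5.70 and 4.78 CPM in prefrontal replicates 1 to 4, and the difference between tissues was not called (adjusted p = 0.728). In the KO libraries of the same age its level was 1.74 ± 0.205 CPM (hippocampus) and 1.86 ± 0.459 CPM (prefrontal cortex; SD, n = 4 each), and which part of the gene is deleted is not given in the sources used here.

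Promoter windows of 4 genes among the largest regional differences are printed first, because they show the DNA at the starts of 2 genes high in hippocampus (Prox1 and Pcdh20) and 2 high in prefrontal cortex (Hs3st2 and Cckbr). They are RefSeq sequences of GRCm38.p6, from 250 bases before to 50 after the start, 5′ to 3′ on the gene's strand, and capitals mark matches to 3 motifs searched on both strands: the NeuroD-type E-box CAGATG, the cAMP response element TGACGTCA and the MEF2 site. No matches overlap in these windows. RefSeq's start lies 113 bases from that of GENCODE M21 for Prox1 and 437 bases for Hs3st2, and is the same for Pcdh20 and Cckbr.
Prox1 (chr1:190170778-190171077, minus strand): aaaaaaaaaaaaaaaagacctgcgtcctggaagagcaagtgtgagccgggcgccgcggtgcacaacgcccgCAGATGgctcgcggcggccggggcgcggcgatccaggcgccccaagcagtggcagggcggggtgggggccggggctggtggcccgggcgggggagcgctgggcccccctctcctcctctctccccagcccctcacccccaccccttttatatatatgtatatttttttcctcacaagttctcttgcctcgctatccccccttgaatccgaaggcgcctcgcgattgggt
Pcdh20 (chr14:88471347-88471646, minus strand): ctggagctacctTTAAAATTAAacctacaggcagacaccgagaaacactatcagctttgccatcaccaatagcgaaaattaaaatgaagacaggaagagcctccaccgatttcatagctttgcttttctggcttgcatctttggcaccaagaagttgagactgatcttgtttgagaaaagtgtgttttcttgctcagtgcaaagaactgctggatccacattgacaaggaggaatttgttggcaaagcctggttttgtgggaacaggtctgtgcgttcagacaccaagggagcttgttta
Hs3st2 (chr7:121392046-121392345, plus strand): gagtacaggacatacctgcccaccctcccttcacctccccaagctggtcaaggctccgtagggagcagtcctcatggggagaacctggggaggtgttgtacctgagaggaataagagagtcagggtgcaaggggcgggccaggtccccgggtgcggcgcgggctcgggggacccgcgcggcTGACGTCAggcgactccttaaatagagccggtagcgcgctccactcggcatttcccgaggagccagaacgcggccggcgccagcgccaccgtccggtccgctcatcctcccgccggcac
Cckbr (chr7:105425481-105425780, plus strand): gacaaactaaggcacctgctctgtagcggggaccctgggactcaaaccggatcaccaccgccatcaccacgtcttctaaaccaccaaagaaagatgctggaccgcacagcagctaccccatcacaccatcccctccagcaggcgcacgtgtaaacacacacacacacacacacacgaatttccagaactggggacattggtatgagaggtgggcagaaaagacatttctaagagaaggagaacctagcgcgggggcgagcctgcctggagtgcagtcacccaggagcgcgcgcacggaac
The Prox1 window holds a CAGATG, the Pcdh20 window a MEF2 match and the Hs3st2 window a TGACGTCA, and the Cckbr window holds none of the 3. Windows were found for 19 of the 24 genes selected by size of difference. Some lie far from the GENCODE M21 start, by 476138 bases in Rasgef1b, 371403 in Zbtb20 and 271370 in Sema3a. The distance was 11011 bases in Thsd4, 3712 in Gfap and 2888 in Nr3c2, and no motif was found in any of these distant windows. CAGATG occurred in 1 of 11 windows of the hippocampal genes and in 1 of 8 of the prefrontal genes, against 12.5% of the 12866 windows of tested genes and 17.3% of all 27025 windows. TGACGTCA occurred in 0 of 11 and 1 of 8, against 2.99% of tested genes' windows and 1.86% of all. The MEF2 site occurred in 1 of 11 and 0 of 8, against 1.9% and 3.26%. These are descriptions of the letters in the windows.

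The tissues differed in a large share of the genes measured. Of 18849 genes tested, 5062 (26.9%) differed at an adjusted p under 0.05 by edgeR's quasi-likelihood test, and these are referred to as called. They divided almost evenly, with 2467 (13.1%) higher in hippocampus and 2595 (13.8%) higher in prefrontal cortex, and the median log2 fold change over all genes was 0.02 (positive values are higher in hippocampus). Every log2 value below is hippocampus minus prefrontal cortex, ± is its standard error beside log2 values and the SD over 4 libraries beside CPM, and series of 4 CPM values follow replicates 1 to 4. For every count of called list members below, the share over all tested genes is 26.9%, or 13.1% and 13.8% by direction. Called differences over 2-fold were found in 1774 genes (9.41%), 4.62% of all being higher in hippocampus and 4.8% in prefrontal cortex, and called differences over 4-fold in 666 (3.53%). Called differences over 8-fold numbered 309 (1.64%), of which 187 (0.992%) were higher in hippocampus and 122 (0.647%) in prefrontal cortex. The 4 hippocampal and 4 prefrontal values did not overlap in 5013 genes (26.6%), and 4119 of these were also called. Among protein-coding genes 29.3% were called, among long intergenic non-coding RNA genes 26.6% and among processed pseudogenes 6.77%. The calls numbered 4144 without hippocampus replicate 1 and 3578 without prefrontal replicates 2 and 4, and 3471 of the latter were among the 5062.

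**Figure D1:**
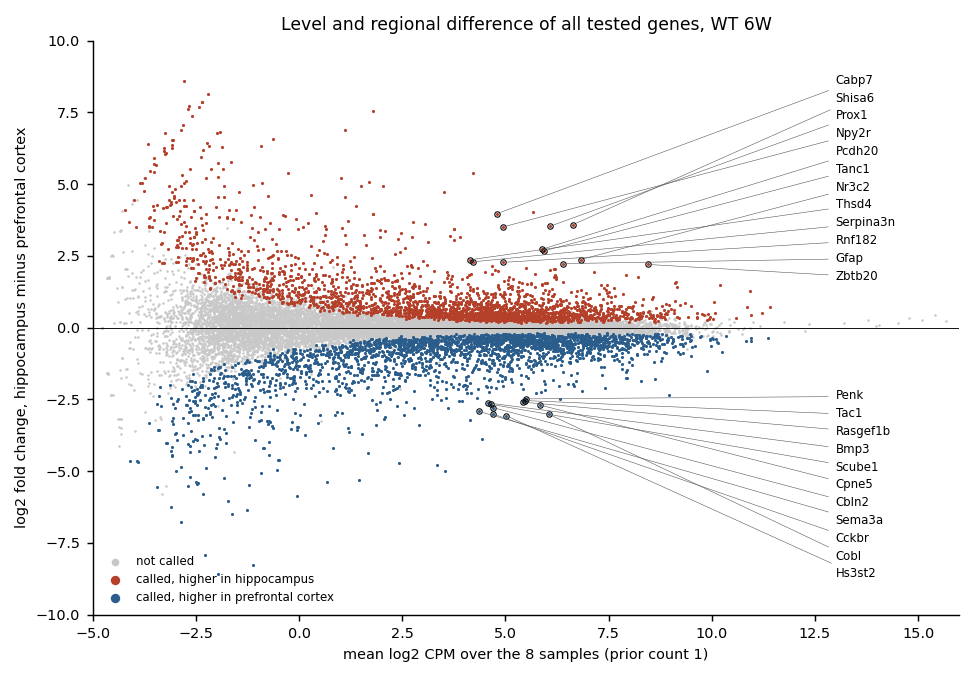
Each point is 1 of the 18849 tested genes, with the mean log2 CPM over the 8 samples on the horizontal axis and the log2 fold change (hippocampus minus prefrontal cortex) on the vertical axis. Red points are the 2467 genes called higher in hippocampus, blue points the 2595 called higher in prefrontal cortex, grey points were not called, and circles mark the genes labelled at the right.

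The 12 genes with the largest difference toward hippocampus, among well-expressed genes whose groups did not overlap, were Cabp7, Shisa6, Prox1, Npy2r, Pcdh20, Tanc1, Nr3c2, Thsd4, Serpina3n, Rnf182, Gfap and Zbtb20. Cabp7 (chr11:4736892-4746778), a calmodulin-related calcium-binding protein, was at 155, 94.97, 106 and 91.9 CPM in hippocampus replicates 1 to 4 and at 6.03, 8.85, 6.80 and 6.79 CPM in prefrontal replicates 1 to 4. Its lowest hippocampal value was above its highest prefrontal one, as the selection required of all these genes. The log2 fold change was 3.98 ± 0.17 (SE; adjusted p = 5.30e-23). Shisa6 (chr11:66211725-66525964), an auxiliary subunit of AMPA-type glutamate receptors, had 310.1, 333, 414 and 333 CPM against 24.7, 29.1, 30.3 and 31.1 CPM. The groups were far apart again, at 3.59 ± 0.16 log2 units. Prox1 (chr1:190118035-190170714), the homeobox factor that dentate granule cells need, was at 245, 207, 282 and 192 CPM in hippocampus and at 20.6, 19.0, 22.4 and 18.0 CPM in prefrontal cortex. That is a log2 fold change of 3.53 ± 0.16, with little spread in either tissue.

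Npy2r (chr3:82538383-82548084), which encodes the Y2 receptor for neuropeptide Y, was measured at 102, 119, 116 and 80.5 CPM in hippocampus against 12.8, 8.97, 7.94 and 7.08 CPM in prefrontal cortex, a difference of 3.51 ± 0.19 log2 units. The protocadherin Pcdh20 (chr14:88464743-88471396) stood at 152, 154, 172 and 133 CPM against 27.8, 21.7, 21.3 and 21.3 CPM. The groups were far apart in Pcdh20 (2.73), and prefrontal replicate 1 was the highest of its group. Tanc1, a postsynaptic scaffold protein, ranged from 139 to 176 CPM across hippocampal libraries and from 22.4 to 27.7 CPM across prefrontal ones (log2 fold change 2.68 ± 0.16). Nr3c2, the mineralocorticoid receptor through which low corticosteroid levels act, ranged from 228 to 302 CPM against 43.5 to 56.6 CPM (2.37). Zbtb20, a zinc-finger factor required for hippocampal pyramidal cell identity, ranged from 638 to 831 CPM against 146 to 204 CPM (2.201). Thsd4, Serpina3n and Rnf182, which encode a matrix-associated protein, a secreted protease inhibitor and a ubiquitin ligase, differed by 2.36, 2.29 and 2.27 log2 units. Gfap, the astrocyte intermediate filament, was at 286, 142, 167 and 155 CPM in hippocampus, highest in the library with the large mitochondrial share, and at 40.1, 40.0, 38.1 and 41.3 CPM in prefrontal cortex (2.23; 1.95 without hippocampus replicate 1).

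Among the 12 largest differences toward prefrontal cortex were those in Hs3st2, Cobl, Cckbr, Sema3a, Cbln2, Cpne5, Scube1, Bmp3, Rasgef1b, Tac1 and Penk. Cckbr (chr7:105425731-105470898), a receptor for the peptide cholecystokinin, was at 77.6, 63.0, 90.5 and 71.7 CPM in prefrontal replicates 1 to 4 and at 7.93, 9.03, 6.79 and 13.4 CPM in hippocampus replicates 1 to 4. The groups lay well apart, with a log2 fold change of -3.01 ± 0.20 (adjusted p = 3.52e-16). Hs3st2 (chr7:121391859-121501770), a sulfotransferase that modifies heparan sulfate chains, had 103, 87.3, 112 and 98.3 CPM in prefrontal cortex and 5.10, 12.2, 9.45 and 20.3 CPM in hippocampus (-3.07 ± 0.21). Sema3a (chr5:13125414-13602565), a secreted axon guidance protein that also sits in perineuronal nets, was at 66.4, 55.0, 47.03 and 58.8 CPM against 6.29, 6.44, 8.29 and 8.88 CPM (-2.92 ± 0.21). Neither gene overlapped between tissues, which the selection required here too. Cobl, an actin nucleator that shapes dendrites, ranged from 177 to 241 CPM in prefrontal cortex and from 11.6 to 36.1 CPM in hippocampus. Cbln2, a cerebellin that organises synapses, ranged from 63.9 to 73.4 CPM against 6.49 to 13.3 CPM (-2.79).

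The calcium-dependent membrane-binding protein Cpne5 and the Ras-family exchange factor Rasgef1b differed by -2.70 and -2.60 log2 units, and the secreted proteins Scube1 and Bmp3 by -2.67 and -2.62. Tac1 and Penk had split prefrontal values. Tac1, the precursor of substance P, was at 61.1, 202, 46.6 and 165 CPM and Penk, the precursor of enkephalins, at 59.3, 189, 67.4 and 141 CPM in prefrontal replicates 1 to 4. In hippocampus they were at 15.0, 23.7, 17.2 and 25.3 CPM and 19.4, 15.8, 27.4 and 19.2 CPM. Replicates 2 and 4, which are the high ones in both genes, are also the libraries with the highest summed striatal markers. Without them the difference in Tac1 was -1.404 (adjusted p = 0.0772) and in Penk -1.64 (adjusted p = 0.072), so that neither was called. The largest adjusted p of the 24 genes selected by size, in the 8 samples, was 0.000855. Exons of 7 of the 24 overlap another annotated gene (Cabp7, Prox1, Nr3c2, Zbtb20, Hs3st2, Cpne5 and Penk), and their reads could be shared with it because the strand setting of the counting is not given in the sources used here.

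**Figure D2:**
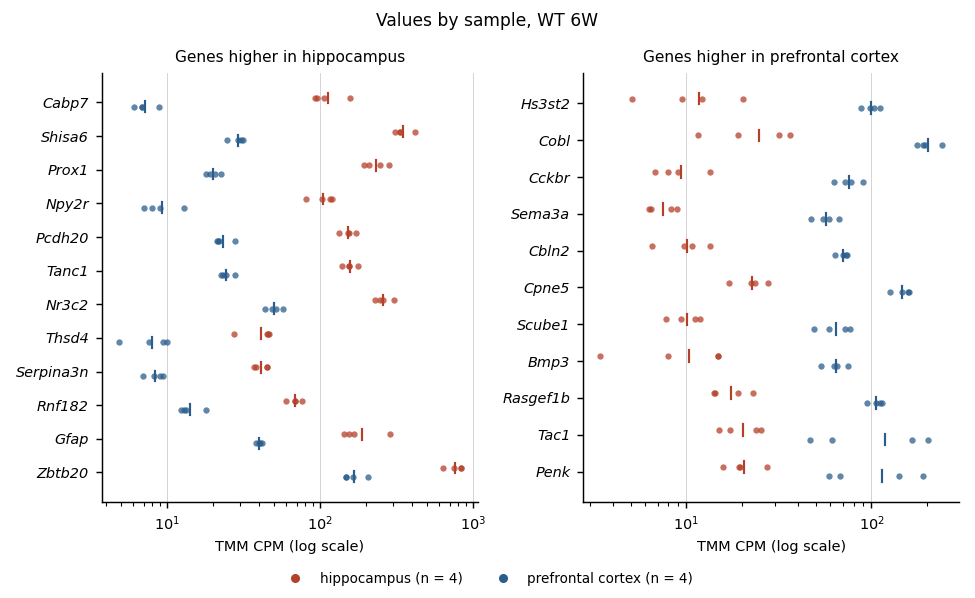
Dots give the TMM CPM of each library on a log axis and vertical bars the group means (n = 4 per tissue) for the 12 genes highest in hippocampus (left) and 11 of the 12 highest in prefrontal cortex (right). The hippocampal (red) and prefrontal (blue) dots do not overlap because the genes were selected for that. Tac1 and Penk show 2 high and 2 low prefrontal libraries.

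Most markers of dentate granule, CA1 and CA3 cells were called higher in hippocampus, and each of these lists had members with very large differences. In the lists of CA2 and of mossy cells and subiculum no majority was called higher there. Of 12 tested genes of dentate granule cells, 8 were called higher in hippocampus and 1 higher in prefrontal cortex (26.9% of all tested genes were called), with a median log2 fold change of 0.83. Dsp, the desmosomal protein desmoplakin, was at 55.4, 38.0, 58.2 and 45.8 CPM in hippocampus against 0.417, 0.274, 0.0356 and 0.329 CPM in prefrontal cortex (7.54 ± 0.43). C1ql2, a secreted protein of mossy fibre synapses, was at 30.2, 18.7, 25.5 and 20.2 CPM against 0.455, 0.118, 0.107 and 0.110 CPM (6.88 ± 0.30). All prefrontal values of both were at or under 0.455 CPM. Lct, the lactase gene, differed by 4.73 log2 units. Calb1 (calbindin), which granule cells share with cortical neurons, was at 154 to 204 CPM in hippocampus and 199 to 268 CPM in prefrontal cortex and was not called (adjusted p = 0.0633).

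Among 10 genes of CA1 pyramidal cells, 7 were called higher in hippocampus and 1 higher in prefrontal cortex (median 1.19). Spink8, a protease inhibitor, was at 22.3, 22.7, 29.6 and 16.5 CPM against 0.872, 0.627, 0.463 and 1.02 CPM (4.92 ± 0.24). Fibcd1, a membrane receptor that binds glycans, ranged from 35.5 to 51.5 CPM against 3.49 to 4.77 CPM (3.43), and the ciliary receptor Gpr161 differed by 3.06. Lefty1, a secreted antagonist of Nodal signalling, differed by 4.61 at 6.04 ± 1.77 CPM in hippocampus (SD, n = 4). Wfs1, an endoplasmic reticulum protein strong in CA1, was at 63.7 to 88.2 CPM in hippocampus and 60.6 to 85.8 CPM in prefrontal cortex, which overlap.

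In the CA2 list 4 of 8 were called higher in hippocampus and 1 higher in prefrontal cortex (median 0.68). The list's summed level was 165 to 199 CPM in hippocampus and 270 to 337 CPM in prefrontal cortex. Sostdc1, called higher in hippocampus, is also in the choroid plexus list. It was called under all 17 alternatives, with differences of 2.99 to 3.63, and the part of choroid plexus RNA in it was not tested. Avpr1b, the vasopressin receptor typical of CA2, was at 0.595, 0.346, 0.242 and 0.172 CPM in hippocampus, from 5 to 12 counts a library, and had 0 or 1 counts in each prefrontal library (adjusted p = 0.00299, and 0.0586 without prefrontal replicates 2 and 4). Amigo2, an adhesion protein, differed by 1.59 ± 0.20 log2 units. The CA2 marker Pcp4, a calmodulin regulator also made in deep cortical layers, was higher in prefrontal cortex, at 261, 292, 235 and 230.1 CPM against 110.3, 91.8, 113 and 81.5 CPM (-1.36 ± 0.22). In the CA3 list 6 of 10 were called higher in hippocampus and 1 higher in prefrontal cortex (median 0.86). Besides Npy2r these included Homer3, a postsynaptic scaffold, at 19.2, 16.8, 17.6 and 15.5 CPM against 1.67, 1.61, 1.85 and 1.94 CPM (3.28 ± 0.21), and the zinc-finger factor St18 at 42.5 to 47.9 CPM against 4.06 to 6.58 CPM (3.16). For mossy cells of the hilus and the subiculum 2 of 8 were called, both higher in hippocampus, a share of 25% that is near the 26.9% of all tested genes. One was Glp1r, the receptor for glucagon-like peptide, at 0.396, 0.735, 0.388 and 1.89 CPM against 0.114, 0.313, 0.214 and 0.219 CPM (adjusted p = 0.0155). Glp1r lost its call in 3 of 15 alternatives (adjusted p up to 0.208, without hippocampus replicate 4), with differences of 1.22 to 2.38. Only 1 of these 8 was called when any of 5 single libraries was left out (hippocampus replicates 1 and 4, prefrontal replicates 1 to 3) or prefrontal replicates 2 and 4 together.

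Genes of the upper cortical layers went toward prefrontal cortex, with 8 of 10 called higher there and 1 higher in hippocampus, and a median log2 fold change of -1.56. Mef2c, an activity-dependent transcription factor of cortical excitatory neurons, was at 1337, 970.2, 1092 and 1159 CPM in prefrontal cortex and 185, 249.7, 234 and 227 CPM in hippocampus (-2.35 ± 0.20). Lamp5, a membrane protein of upper-layer neurons and some interneurons, was at 197, 188, 189.6 and 187 CPM against 29.5, 33.6, 39.3 and 34.0 CPM (-2.48 ± 0.20). Otof (otoferlin, a calcium sensor of exocytosis) differed by -3.19 and the homeobox factor Cux2 by -2.15. All 4 genes were without overlap. Enpp2, which makes lysophosphatidic acid and is also strong in choroid plexus and oligodendrocytes, was at 307, 188, 256 and 757 CPM in hippocampus, with the highest value in replicate 4, and was not called (adjusted p = 0.516).

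The deep-layer genes were mixed, with 5 of 13 called higher in prefrontal cortex, 4 higher in hippocampus and a median of 0.14. Foxp2, a forkhead factor of corticothalamic neurons, was at 17.5, 32.1, 19.8 and 30.1 CPM in prefrontal cortex and 1.59, 2.29, 2.42 and 3.05 CPM in hippocampus (-3.39 ± 0.44). Syt6, a synaptotagmin, differed by -2.08 and the cell-cycle regulator Rprm by -1.195. The prefrontal values of Foxp2 and Syt6 were higher in replicates 2 and 4, as striatal markers were. Tshz2, a zinc-finger factor, went the other way, at 50.6, 124, 88.3 and 152 CPM in hippocampus against 33.4, 35.5, 35.7 and 41.8 CPM in prefrontal cortex (1.51 ± 0.30). In the list of layer 6b and claustrum 3 of 7 were called higher in prefrontal cortex and 1 higher in hippocampus (median -1.02). The number higher in hippocampus was 0 without prefrontal replicates 2 and 4 and 2 without prefrontal replicate 3. Gnb4, a G protein subunit, ranged from 53.2 to 59.8 CPM in prefrontal cortex and 24.2 to 28.4 CPM in hippocampus (-1.08).

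**Figure D3:**
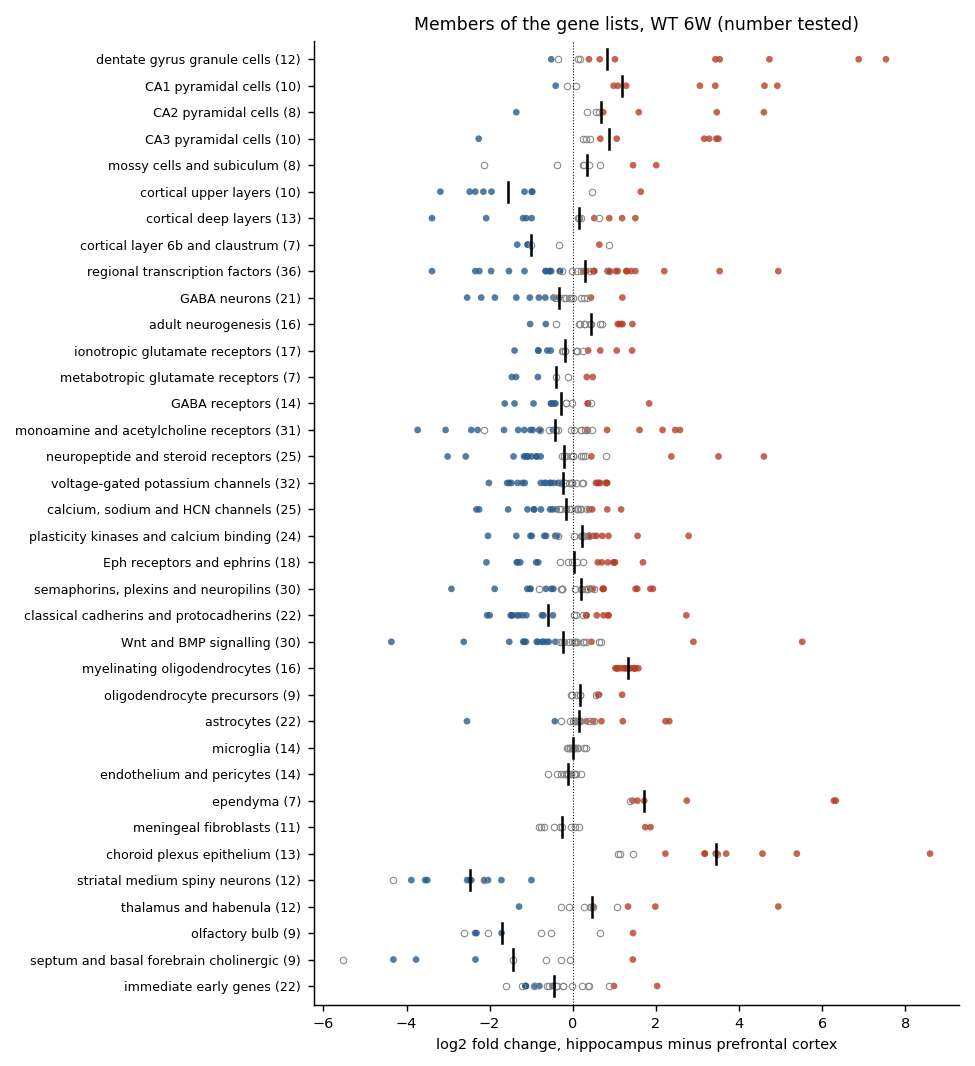
Each row is a gene list with the number of members tested, and each point is a member's log2 fold change, hippocampus minus prefrontal cortex. Filled points were called (red higher in hippocampus, blue higher in prefrontal cortex), open points were not, black bars are list medians, and the dotted line is the median over all tested genes (0.02). All 16 myelin genes lie to the right, and the 10 called striatal genes lie to the left.

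Of 36 transcription factors with known regional roles, 17 were called higher in hippocampus and 13 higher in prefrontal cortex. On the hippocampal side Lhx9, a LIM homeobox factor that is also in the list of thalamus and habenula genes, had 13.3, 18.4, 15.8 and 14.0 CPM against 0.341, 0.588, 0.570 and 0.475 CPM (4.94 ± 0.26). Prox1, Zbtb20 and Tshz2 were called higher in hippocampus, as were several neuronal basic helix-loop-helix factors. Neurod6 differed by 1.398 ± 0.18, Bhlhe22 by 1.30 ± 0.21, Neurod1 by 1.08 ± 0.17 and Neurod2 by 0.88 ± 0.13 log2 units, and none of them overlapped between tissues. Pou3f1 (1.28), Nr2f2 (1.04), Bcl11b (0.88) and Emx2 (0.84) were also called higher in hippocampus. Emx2 patterns the medial cortex from which the hippocampus forms. Smaller differences in the same direction were called in Lhx2, Etv1, Npas3 and Bcl11a, between 0.26 and 0.52. Of 17 alternatives Lhx2 lost its call in 6 (adjusted p up to 0.196, without hippocampus replicate 1), Bcl11a in 5 (up to 0.186), Etv1 in 1 (0.169, without prefrontal replicates 2 and 4, as for Bcl11a) and Npas3 in 1 (0.0624, without prefrontal replicate 3). Over these alternatives the difference was 0.37 to 0.58 in Lhx2, 0.20 to 0.30 in Bcl11a, 0.37 to 0.63 in Etv1 and 0.28 to 0.38 in Npas3.

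On the prefrontal side Tbr1, a T-box factor of early-born cortical neurons, was at 467, 359.6, 441 and 400.1 CPM in prefrontal cortex and 123, 148, 146 and 157 CPM in hippocampus (-1.54 ± 0.14). Meis2 (-1.97 ± 0.15) and Rorb (-1.16 ± 0.13), a homeobox factor and a nuclear receptor of the granular cortical layer, were likewise without overlap. Foxp1, Id2, Sox5, Emx1, Otx1, Klf7 and Nr2f1 were called between -0.66 and -0.31. Several of these calls were lost under the 17 alternatives. Otx1 lost its call in 11 and Emx1 in 7, with adjusted p up to 0.204 and 0.282 without prefrontal replicates 2 and 4, and both also without any single one of hippocampus replicates 2 to 4 or prefrontal replicate 4. Single prefrontal libraries that ended a call were also replicate 1 for Otx1 and replicates 2 and 3 for Emx1. Nr2f1 lost its call in 4 (up to 0.0927, without hippocampus replicate 3) and Klf7 in 2 (up to 0.0989, without hippocampus replicate 1). Over the alternatives the difference was -0.66 to -0.38 in Otx1, -0.66 to -0.41 in Emx1, -0.39 to -0.26 in Nr2f1 and -0.38 to -0.24 in Klf7. Emx1 differed by -0.56 ± 0.20 and its close relative Emx2 by 0.84 ± 0.13, and the orphan nuclear receptors Nr2f1 and Nr2f2 by -0.31 ± 0.11 and 1.04 ± 0.22. Emx2 and Nr2f2 were called under every one of the 17 alternatives. Satb1, Fezf2, Lef1, Pax6, Nfix and Nr4a2 were not called, with Satb1 at 93.2 to 136 CPM in hippocampus and 103 to 123 CPM in prefrontal cortex. Without hippocampus replicate 1 the list's counts were 16 and 11, and without prefrontal replicates 2 and 4 they were 14 and 11.

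In the list of GABA neuron genes 9 of 21 were called higher in prefrontal cortex and 2 higher in hippocampus (median -0.32). Gad1, the enzyme that makes GABA, was at 249, 357, 332 and 347 CPM in hippocampus against 329, 359, 286 and 349 CPM in prefrontal cortex, which overlap (adjusted p = 0.883). Slc32a1, the vesicular GABA transporter and like Gad1 a general marker, was called higher in prefrontal cortex, at 45.4 ± 10.9 CPM against 28.6 ± 6.43 CPM (-0.66 ± 0.25, adjusted p = 0.0424). It was named after its values were seen, and its call was lost in 7 of 17 alternatives (adjusted p up to 0.483, without prefrontal replicates 2 and 4), with differences of -0.82 to -0.35. Vip, the peptide of a disinhibitory interneuron class, was at 37.2, 27.6, 29.1 and 30.7 CPM in prefrontal cortex and 9.07, 12.8, 9.99 and 16.4 CPM in hippocampus (-1.36 ± 0.23). Crh (corticotropin-releasing hormone) was at 12.2, 11.1, 9.58 and 12.3 CPM against 2.43, 3.33, 3.05 and 3.46 CPM (-1.87 ± 0.27). Chodl, a marker of long-range projecting GABA neurons, differed by -2.203 ± 0.48 at 1.42 ± 0.448 CPM in prefrontal cortex (SD, n = 4). The cannabinoid receptor Cnr1 was at 370.2 ± 75.7 and 369 ± 40.6 CPM and was not called. Without prefrontal replicates 2 and 4, the libraries high in striatal genes, 5 of the 21 were called higher in prefrontal cortex and 1 higher in hippocampus. Calls over all genes also fell in that fit, from 5062 to 3578, and the part of striatal RNA in this count was not tested.

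Neurogenesis continues in the adult dentate gyrus, and 5 of 16 genes of progenitors and newborn neurons were called higher in hippocampus, 2 higher in prefrontal cortex (median 0.43). That is 43.8% called, against 26.9% of all tested genes. Hopx, a homeodomain protein of radial glia-like stem cells and astrocytes, was at 97.2, 61.2, 61.0 and 56.0 CPM in hippocampus against 32.4, 35.9, 27.0 and 27.8 CPM in prefrontal cortex (1.16 ± 0.16). Igfbpl1 and Draxin, expressed in immature neurons, differed by 1.199 and 1.12. Igfbpl1 lost its call in 3 of 17 alternatives (adjusted p up to 0.101) and Draxin in 4 (up to 0.269), both most without prefrontal replicates 2 and 4, with differences of 0.96 to 1.39 and 0.70 to 1.36. Hippocampus replicate 1 was the highest library for these 3 genes. The 2 members called higher in prefrontal cortex were Dcx and Hes5, named after their values were seen. Dcx (doublecortin), the microtubule protein used as a marker of newborn neurons, was at 98.6, 88.6, 83.8 and 85.3 CPM in prefrontal cortex and 63.9, 56.8, 54.4 and 52.2 CPM in hippocampus, without overlap (-0.65 ± 0.22, adjusted p = 0.0201). Hes5, a Notch target of progenitors and astrocytes whose exons overlap Gm20421, was at 4.94 ± 0.828 CPM in prefrontal cortex and 2.42 ± 0.766 CPM in hippocampus (SD, n = 4 each), also without overlap (-1.03 ± 0.30, adjusted p = 0.00726). Without prefrontal replicates 2 and 4 their adjusted p was 0.0638 and 0.0632, and that of Dcx was 0.0523 without prefrontal replicate 1. Over the 17 alternatives the difference stayed at -0.71 to -0.60 in Dcx and -1.24 to -0.88 in Hes5. Without hippocampus replicate 1, 3 members were called higher in hippocampus and 3 higher in prefrontal cortex, and without prefrontal replicates 2 and 4 the numbers were 3 and 0. Without prefrontal replicate 4 alone 3 were called higher in hippocampus, and without prefrontal replicate 1 there was 1 higher in prefrontal cortex. Sox11 and Sox4, factors of immature neurons, were at 22.5 ± 2.69 and 14.9 ± 2.92 CPM in hippocampus against 19.9 ± 1.88 and 19.5 ± 2.80 CPM in prefrontal cortex and were not called.

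Receptors for the fast transmitters differed by subunit. Among ionotropic glutamate receptors 4 of 17 were called higher in hippocampus and 5 higher in prefrontal cortex (median -0.18). The AMPA receptor subunit Gria1 was at 805, 905, 1069 and 952 CPM in hippocampus against 331, 344, 367 and 346 CPM in prefrontal cortex (1.43 ± 0.12), while the related subunit Gria2 was at 606 ± 69.8 and 507 ± 70.6 CPM and was not called. Kainate receptor subunits went both ways. Grik4 was higher in hippocampus, at 31.1 to 45.5 CPM against 14.8 to 20.7 CPM (1.06 ± 0.16), and Grik3 higher in prefrontal cortex, at 58.0 to 84.1 CPM against 14.2 to 35.9 CPM (-1.401 ± 0.16). The NMDA receptor subunit Grin2b overlapped between tissues (0.10, adjusted p = 0.731). Of 7 metabotropic glutamate receptors 2 were called higher in hippocampus and 3 higher in prefrontal cortex (median -0.41), with the inhibitory receptors Grm8, Grm4 and Grm3 at -1.47, -1.36 and -0.84.

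Of 14 GABA receptor genes 3 were called higher in hippocampus and 7 higher in prefrontal cortex (median -0.29). Gabra5, the alpha subunit of extrasynaptic receptors in pyramidal cells, was at 445, 468, 533 and 392 CPM in hippocampus against 137, 122, 128 and 127 CPM in prefrontal cortex (1.84 ± 0.13). Gabra3, another alpha subunit, had the reverse order, with 327, 272, 287 and 292 CPM in prefrontal cortex and 58.7, 122, 80.6 and 117 CPM in hippocampus (-1.64 ± 0.16). Gabrd, the delta subunit of tonic receptors, was at 36.4, 39.9, 43.0 and 41.0 CPM against 18.1, 14.5, 15.3 and 13.0 CPM (-1.402 ± 0.16), and Gabrg3 differed by -0.95. Without prefrontal replicates 2 and 4 the counts were 1 and 5, and without hippocampus replicate 3 only 1 was called higher in hippocampus.

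Modulatory receptors were counted as follows: 12 of 31 monoamine and acetylcholine receptors were called higher in prefrontal cortex and 6 higher in hippocampus (median -0.42), and 11 of 25 neuropeptide and steroid receptors were called higher in prefrontal cortex and 4 higher in hippocampus (median -0.21). The serotonin receptors were divided. Htr1d was at 3.03, 5.91, 2.57 and 4.601 CPM in prefrontal cortex and 0.248, 0.216, 0.291 and 0.412 CPM in hippocampus (-3.73 ± 0.47). Htr4 was at 12.6, 14.9, 13.8 and 12.9 CPM in hippocampus against 0.569, 3.68, 1.603 and 3.21 CPM in prefrontal cortex (2.58 ± 0.41), and Htr5b was higher in hippocampus by 2.46 ± 0.32. Adra1b, an alpha-1 receptor for noradrenaline, was at 15.8, 17.0, 18.0 and 18.5 CPM against 1.09, 2.68, 1.89 and 2.504 CPM (-3.06 ± 0.23). The muscarinic receptors Chrm1 and Chrm3 were not called (0.20 and 0.04). Among peptide receptors the kappa opioid receptor Oprk1 was at 6.03, 15.1, 11.2 and 11.6 CPM in prefrontal cortex and 0.595, 3.37, 0.727 and 2.47 CPM in hippocampus (-2.58 ± 0.39). Beside the 2.37 of the mineralocorticoid receptor Nr3c2, the glucocorticoid receptor Nr3c1 was at 124 ± 3.64 CPM in hippocampus against 128 ± 6.15 CPM in prefrontal cortex (-0.05 ± 0.09, adjusted p = 0.774).

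Among voltage-gated and related potassium channels 15 of 32 were called higher in prefrontal cortex and 7 higher in hippocampus (median -0.24). Kcnh5, of the ether-a-go-go family, was at 27.6, 34.9, 36.4 and 37.2 CPM in prefrontal cortex and 5.95, 8.91, 9.60 and 9.09 CPM in hippocampus (-2.02 ± 0.16), and its relative Kcnh7 at 448, 354, 435 and 429 CPM against 107, 138, 209 and 145 CPM (-1.48 ± 0.19). The modifier subunits Kcnv1 and Kcnf1, which form no channel alone, differed by -1.58 and -1.53. None of these 4 overlapped. Kcnq3, a subunit of the channels that carry the M-current, differed by 0.08 and was not called. Of 25 calcium, sodium and HCN channel genes 10 were called higher in prefrontal cortex and 4 higher in hippocampus (median -0.16). Hcn4, a pacemaker channel subunit, was at 4.51, 3.53, 4.52 and 4.45 CPM against 0.545, 0.865, 0.824 and 1.10 CPM (-2.32 ± 0.23). The sodium channel beta subunits had opposite directions. Scn3b was at 321, 317, 425 and 325 CPM in hippocampus against 158, 155, 159 and 149 CPM in prefrontal cortex (1.16 ± 0.12). Scn4b was at 27.8, 80.5, 42.4 and 69.4 CPM in prefrontal cortex, highest in replicates 2 and 4, and 11.8, 9.29, 14.8 and 10.3 CPM in hippocampus (-2.25 ± 0.37, and -1.61 without those 2 libraries).

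Of 24 plasticity kinases, calcium-binding proteins and neurotrophins, 9 were called higher in hippocampus and 8 higher in prefrontal cortex (median 0.22). Ntf3 (neurotrophin-3) was at 21.8, 14.4, 16.4 and 11.2 CPM in hippocampus against 3.64, 1.92, 1.89 and 1.75 CPM in prefrontal cortex (2.79 ± 0.26). Hpca (hippocalcin), a neuronal calcium sensor named for this tissue, was at 1007, 874, 1161 and 774 CPM against 330.5, 353, 296 and 315 CPM (1.56 ± 0.13). Ppp1r1b (DARPP-32), which relays dopamine signals and is abundant in striatum, was at 24.1, 115, 46.4 and 86.0 CPM in prefrontal cortex and 16.6, 13.7, 16.5 and 19.0 CPM in hippocampus (-2.04 ± 0.49). Its prefrontal values were high in replicates 2 and 4, and it was not called without them (adjusted p = 0.167). Camk2a, the kinase of long-term potentiation, was at 3732 ± 1051 and 3220.2 ± 194 CPM and was not called.

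Genes of axon guidance and adhesion were called in both directions. Of 18 Eph receptors and ephrins 7 were called higher in hippocampus and 6 higher in prefrontal cortex (median 0.04). The receptor Epha6 was at 122, 119, 159.6 and 137 CPM in hippocampus against 35.8, 38.1, 47.6 and 44.9 CPM in prefrontal cortex (1.69 ± 0.17). The ligand Efna5 was at 29.5, 24.3, 30.3 and 31.4 CPM in prefrontal cortex and 2.97, 8.82, 4.61 and 10.5 CPM in hippocampus (-2.08 ± 0.23). Among 30 genes of semaphorin, Slit and netrin signalling 10 were called higher in hippocampus and 8 higher in prefrontal cortex (median 0.21). The secreted ligand Sema3a was higher in prefrontal cortex, as given above, and its co-receptor Nrp1 higher in hippocampus, at 39.4, 54.0, 51.9 and 53.1 CPM against 11.04, 11.6, 16.2 and 15.6 CPM (1.87 ± 0.17). The transmembrane ligand Sema5a was at 307, 252, 323 and 234 CPM against 71.3, 66.2, 79.7 and 76.2 CPM (1.93 ± 0.14), and the receptor Plxnd1 at 55.2, 74.0, 81.8 and 67.3 CPM in prefrontal cortex and 13.9, 20.5, 18.5 and 22.4 CPM in hippocampus (-1.88 ± 0.16).

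Of 22 classical cadherins and protocadherins 12 were called higher in prefrontal cortex and 7 higher in hippocampus (median -0.59). Besides Pcdh20 on the hippocampal side, Cdh22 and Cdh4 were higher in prefrontal cortex, with -2.06 ± 0.20 and -1.49 ± 0.14 log2 units. Cdh7 was too, at 35.7, 32.5, 28.8 and 35.7 CPM in prefrontal cortex and 4.95, 8.86, 9.02 and 10.2 CPM in hippocampus (adjusted p = 3.39e-12). Cdh2 (N-cadherin), which is general to neurons, was at 142 ± 11.3 and 138 ± 7.23 CPM and was not called. In Wnt and BMP signalling 13 of 30 were called higher in prefrontal cortex and 3 higher in hippocampus (median -0.23). Dkkl1, a secreted protein related to Wnt antagonists, was at 12.2, 15.7, 16.1 and 15.5 CPM in prefrontal cortex and 0.396, 0.865, 0.436 and 1.06 CPM in hippocampus (-4.37 ± 0.28). Grem1, a secreted BMP antagonist, was at 6.04, 4.63, 8.48 and 5.52 CPM in hippocampus against 1.02, 0.744, 1.10 and 0.402 CPM in prefrontal cortex (2.903 ± 0.34), where the BMP ligand Bmp3 was higher. Wnt8b, a ligand of the embryonic cortical hem, was at 1.34, 0.389, 0.436 and 0.412 CPM in hippocampus and had at most 1 count in a prefrontal library (adjusted p = 3.80e-06).

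All 16 myelin genes tested were called higher in hippocampus, with a median log2 fold change of 1.33. Their summed level was 10992, 4813, 7145 and 6827 CPM in hippocampus replicates 1 to 4 and 3275, 3178, 2412 and 2681 CPM in prefrontal replicates 1 to 4. The groups did not overlap, and hippocampus replicate 1, with its large mitochondrial share, was the highest. Mobp, a structural myelin protein, was at 1603, 571, 937 and 913 CPM against 393, 353, 304 and 298 CPM (1.58 ± 0.31), and Mal, a myelin membrane proteolipid, at 397, 194, 305 and 294 CPM against 109.7, 112, 101 and 103 CPM (1.48 ± 0.20). Without hippocampus replicate 1, and without prefrontal replicates 2 and 4, all 16 were again called, and the median without the former was 1.11. Of 9 precursor genes 3 were called, higher in hippocampus (median 0.19), a share of 33.3% that is near the 26.9% of all tested genes. Enpp6, a marker of newly forming oligodendrocytes, was at 1.19 ± 0.24, and the precursor receptor Pdgfra was not called at 0.17 ± 0.09.

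Of 22 astrocyte genes 6 were called higher in hippocampus and 2 higher in prefrontal cortex (median 0.15). That is 36.4% called, against 26.9% of all tested genes. Only 1 was called higher in prefrontal cortex when any library other than hippocampus replicate 2, prefrontal replicate 1 or prefrontal replicate 4 was left out. Chrdl1, a secreted astrocyte protein that matures synapses, was at 42.0, 42.2, 30.2 and 34.8 CPM in prefrontal cortex and 6.69, 6.66, 6.59 and 5.66 CPM in hippocampus (-2.55 ± 0.22). Agt (angiotensinogen) was at 17.8, 19.8, 13.7 and 21.9 CPM in hippocampus against 2.88, 4.82, 2.78 and 4.20 CPM in prefrontal cortex (2.32 ± 0.40), and Thrsp differed by 1.204. The glutamate transporters Slc1a2 and Slc1a3, which nearly all astrocytes express, were not called (0.14 and 0.14). No gene of the microglial list (14 tested, median 0.01) or of the list for endothelium and pericytes (14 tested, median -0.11) was called by edgeR. At an unadjusted p under 0.05 there were 0 and 4 such genes, and DESeq2 called 0 and 0.

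Markers of several tissues that border the dissected regions moved with the comparison. Of 12 striatal genes 10 were called higher in prefrontal cortex (median -2.46). Adora2a, the adenosine receptor of indirect-pathway neurons, was at 0.986, 20.9, 4.03 and 13.9 CPM in prefrontal replicates 1 to 4 and 1.24, 0.605, 0.776 and 0.892 CPM in hippocampus. Prefrontal replicate 1 lay within the hippocampal range, and replicates 2 and 4 were far above it. Isl1, a factor of direct-pathway neurons that cortex lacks, was at 0.455, 4.504, 0.356 and 4.31 CPM in prefrontal cortex and 0.0495, 0, 0 and 0.343 CPM in hippocampus (adjusted p = 0.0616). With replicates 2 and 4 left out, 2 of the 12 were called, among them Drd1, which was named after its values were seen (-1.402, adjusted p = 0.0495), and the median was -1.40. The cholinergic genes Chat, Slc18a3 and Slc5a7 had the same split, Slc5a7 being at 1.86, 8.81, 1.603 and 8.07 CPM in prefrontal cortex. In that list 3 of 9 were called higher in prefrontal cortex and 1 higher in hippocampus (44.4% called, against 26.9% of all tested genes). Without replicates 2 and 4 the counts were 0 and 1. Without hippocampus replicate 2 or prefrontal replicate 2 alone, 1 was called higher in prefrontal cortex.

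On the hippocampal side 9 of 13 choroid plexus genes were called higher (median 3.44), and their summed level was 91.2, 74.7, 116 and 1267 CPM in hippocampus against 33.6, 14.7, 14.2 and 17.6 CPM in prefrontal cortex. Ttr (transthyretin), which the plexus secretes, was at 45.0, 16.9, 56.0 and 1068 CPM in hippocampus against 21.1, 1.96, 2.99 and 2.34 CPM in prefrontal cortex. Replicate 4 carried most of that signal, prefrontal replicate 1 reached the hippocampal range, and 3 of the 13 were called without hippocampus replicate 4, as many as without prefrontal replicates 2 and 4. Ependymal genes, of the ciliated ventricular lining, were called higher in hippocampus in 6 of 7 (median 1.72), with Tmem212 at 7.68, 2.33, 2.38 and 4.12 CPM against 0.0759, 0.0783, 0.0356 and 0 CPM (6.33 ± 0.93). Of 11 meningeal genes 2 were called (18.2%, below the 26.9% of all tested genes), the matrix proteins Dcn and Lum. Both were higher in hippocampus, and the list's median was -0.27. Dcn was at 13.4, 63.3, 9.74 and 80.7 CPM in hippocampus, high in replicates 2 and 4, and 7.68 to 14.9 CPM in prefrontal cortex.

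Of 12 genes of thalamus and habenula 4 were called higher in hippocampus and 1 higher in prefrontal cortex (41.7% called, against 26.9% of all tested genes; median 0.47). The summed level of the list was 223, 229, 249 and 275 CPM in hippocampus against 212, 194, 176 and 192 CPM in prefrontal cortex. Lhx9, described among the regional factors, has the largest difference of this list (4.94 ± 0.26), and the part of thalamic RNA in it was not tested. Prkcd, a kinase strong in thalamus, was at 27.3, 11.4, 20.6 and 19.0 CPM against 4.74, 5.44, 4.88 and 4.67 CPM (1.99 ± 0.26). The vesicular glutamate transporter Slc17a6, which marks thalamic neurons, was at 21.01 to 46.1 CPM in hippocampus and 19.8 to 34.1 CPM in prefrontal cortex and was not called. Of 9 olfactory bulb genes 3 were called higher in prefrontal cortex and 1 higher in hippocampus (44.4% called, median -1.71). Th, the dopamine-synthesising enzyme, was at 2.69, 0.979, 1.10 and 1.31 CPM against 0.446, 0.216, 0.388 and 0.172 CPM (adjusted p = 0.0322). Prefrontal replicate 1 was the highest library for Th and for the list's summed level, which was 87.2, 56.8, 49.7 and 49.0 CPM in prefrontal cortex and 34.6, 32.4, 28.5 and 38.3 CPM in hippocampus. Th lost its call in 4 of 17 alternatives, without prefrontal replicate 1 (adjusted p = 0.115) and without any single one of hippocampus replicates 2 to 4, and its difference was -2.67 to -1.93 over the 17. Only 1 of the 9 was called higher in prefrontal cortex without hippocampus replicate 2 or 3, and 0 higher in hippocampus without hippocampus replicate 1, prefrontal replicate 2 or 3, or prefrontal replicates 2 and 4. The part of these neighbouring tissues in the other gene groups was not tested, and the counts given without the libraries concerned also rest on fewer samples.

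**Figure D4:**
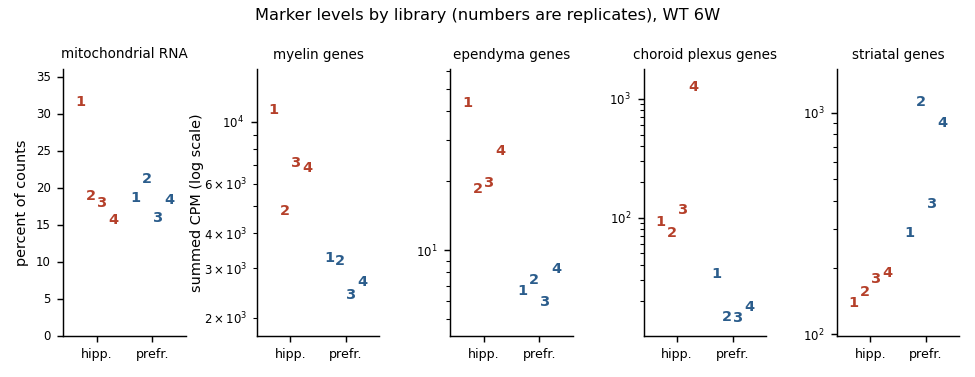
Each number is a replicate of hippocampus (red) or prefrontal cortex (blue). The first panel gives the percentage of counts from mitochondrial genes, the other 4 the summed TMM CPM of marker lists on log axes with different ranges. Hippocampus replicate 1 is high in mitochondrial and myelin RNA, hippocampus replicate 4 in choroid plexus RNA (1267 CPM), and prefrontal replicates 2 and 4 in striatal RNA.

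Immediate early genes, which neurons induce within minutes of activity, were called in 8 of 22, with 6 higher in prefrontal cortex and 2 higher in hippocampus (median -0.45). That is 36.4% called, against 26.9% of all tested genes. Nr4a3, an orphan nuclear receptor, was at 130.4, 159, 169 and 140.2 CPM in hippocampus against 33.6, 31.7, 48.7 and 32.5 CPM in prefrontal cortex (2.03 ± 0.21), without overlap. Its relative Nr4a1 was at 21.3 to 51.2 CPM and 18.2 to 64.2 CPM and was not called. Egr1, a zinc-finger factor used as an activity marker, was at 154, 196, 353 and 244 CPM in prefrontal cortex and 55.9, 87.7, 162 and 128 CPM in hippocampus (-1.13 ± 0.34, adjusted p = 0.011). The groups overlapped in Egr1, and replicate 3 was the highest in each tissue. It was not called without hippocampus replicate 1 or prefrontal replicate 3 (adjusted p up to 0.0771). Nptx2, a secreted pentraxin that clusters AMPA receptors, was at 31.5, 38.6, 37.3 and 44.6 CPM against 17.2, 14.6, 18.7 and 18.7 CPM (-1.14 ± 0.14). Fosb differed by -1.14 ± 0.34, with overlap, and was not called without prefrontal replicates 2 and 4 (adjusted p = 0.053). Its difference was -1.33 to -0.97 over the 17 alternatives, and that of Egr1 -1.38 to -0.87. The summed level of the list was 762, 909, 1160.2 and 998 CPM in hippocampus replicates 1 to 4 and 928, 1067, 1399 and 1387 CPM in prefrontal replicates 1 to 4. By this sum the replicate numbers stand in the same order in both tissues, and each prefrontal library is above the hippocampal library of its number. A fit with the replicate number as a block called 12 of the 22 higher in prefrontal cortex and 2 higher in hippocampus, and a fit with no filter 10 and 3. The sources used here do not say whether same-numbered samples share an animal. Over 9732 genes the largest correlations of deviations from the group means were between unlike replicate numbers.

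The same contrast was set beside that in samples not used by it. They share no library with the 8 but share the fit and its estimate of spread. Of the 5062 genes called in WT at 6W, 5017 (99.1%) had the same direction in KO mice of that age and 3877 were called in it, which is 76.6% of the 5062 and 78.0% of the 4971 KO calls. In WT mice at 6M 4925 (97.3%) had the same direction and 3327 were called in it, 65.7% of the 5062 and 78.7% of the 4230 calls at 6M. At P5 the numbers were 4006 (79.1%) and 2187, the latter 43.2% of the 5062 and 44.7% of the 4894 calls at P5, and 220 genes were called in the opposite direction. The calls made up 26.4% of tested genes in KO at 6W, 22.4% in WT at 6M and 26.0% at P5. All 24 genes selected by size were called in the same direction in KO at 6W and in WT at 6M, and 18 of them at P5.

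Whether the regional difference depended on genotype or age was tested directly as a difference of differences. Between WT and KO at 6W it was called in 0 of 18849 genes by edgeR (364 at an unadjusted p under 0.05), and in 1 gene, Gbx1, by DESeq2 (named after its values were seen, as is Cort). Between 6W and 6M it was called in 0 genes by edgeR (832 unadjusted, 4.41%), in 1, Cort, by DESeq2, and in 1, again Cort, by edgeR without prefrontal replicate 1. Between 6W and P5 it was called in 2165 genes (11.5%), with 959 positive (5.09%), that is more toward hippocampus at 6W, and 1206 negative (6.4%). Without prefrontal replicates 2 and 4 the positive ones numbered 639.

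Among well-expressed genes called at 6W without overlap, the 6 largest such age differences were in Cckbr, Car12, Car10, Thsd4, Dusp14 and Ddit4l. Cckbr was at 8.71 ± 1.30 CPM in hippocampus against 6.72 ± 1.45 CPM in prefrontal cortex at P5 (SD, n = 4), against 9.30 ± 2.91 and 75.7 ± 11.5 CPM at 6W, so the prefrontal level was the one that differed between ages, and the regional difference changed by -3.38 ± 0.28 log2 units (adjusted p = 6.27e-12). Car12, a carbonic anhydrase, was at 39.7 ± 10.8 CPM in hippocampus against 1.81 ± 0.807 CPM in prefrontal cortex at P5 and at 41.1 ± 5.11 and 18.4 ± 5.82 CPM at 6W, a change of the difference by -3.27 ± 0.40. Car10, a catalytically inactive relative, was at 33.7 ± 2.25 CPM in hippocampus against 23.6 ± 4.21 CPM in prefrontal cortex at P5 and at 54.5 ± 14.6 and 254 ± 32.5 CPM at 6W. Dusp14, a phosphatase of MAP kinases, and Ddit4l, an inhibitor of mTOR signalling, were called higher in hippocampus at P5 (0.98 and 1.53) and higher in prefrontal cortex at 6W (-1.67 and -1.10). Thsd4 was at 12.7 ± 1.74 CPM in hippocampus against 16.2 ± 4.78 CPM in prefrontal cortex at P5 and at 40.9 ± 9.07 and 7.94 ± 2.30 CPM at 6W.

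Prox1 was close to its 6W levels at P5 already, at 209.6 ± 16.5 CPM in hippocampus against 23.3 ± 3.07 CPM in prefrontal cortex, and its regional difference was not called as different between ages (0.36 ± 0.20, adjusted p = 0.287). Tanc1 was at 12.7 ± 0.741 CPM in hippocampus against 8.65 ± 1.68 CPM in prefrontal cortex at P5, and its difference was larger at 6W by 2.13 ± 0.23. Among the hippocampal field markers the age difference was called in 7 of 12 dentate genes, 4 of 10 CA1 genes, 1 of 8 CA2 genes and 4 of 10 CA3 genes. The share over all tested genes was 11.5%, and the CA2 count is near it. Dsp differed between tissues by 2.06 at P5 and 7.54 at 6W, and C1ql2 by 2.08 and 6.88. Spink8 and St18 did not pass the test of an age difference, at 4.79 and 3.47 at P5. For the upper cortical layers it was called in 5 of 10, with Lamp5 at 0.06 and Otof at 0.13 at P5, where neither was called. Lamp5, Otof and Rspo1 were more toward prefrontal cortex at 6W than at P5 (-2.54, -3.31 and -3.17), and Rorb and Mef2c less so (1.04 and 0.92). Mef2c lost this call without prefrontal replicates 2 and 4 (adjusted p = 0.0973), and Rspo1 was named after its values were seen.

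**Figure D5:**
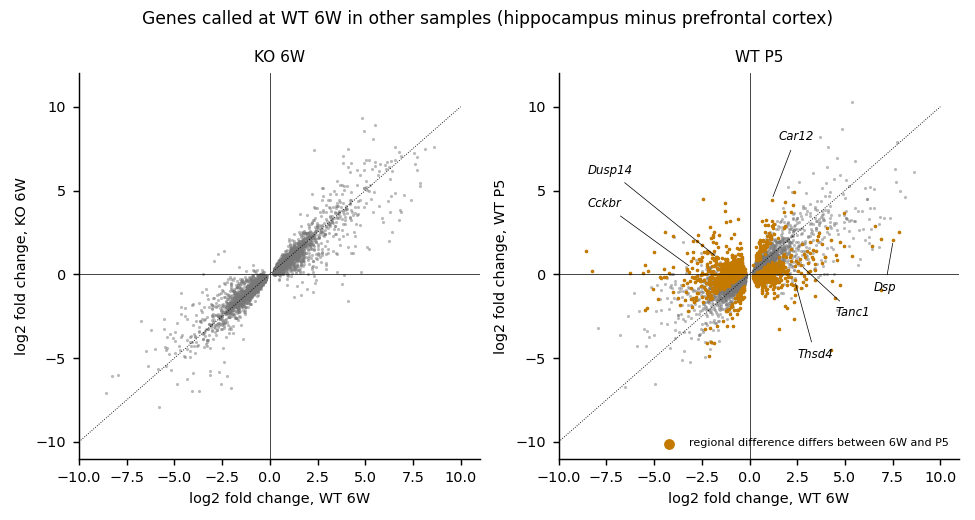
Each point is 1 of the 5062 genes called in WT at 6W, with its log2 fold change there (hippocampus minus prefrontal cortex) on the horizontal axis and that in KO mice at 6W (left) or WT mice at P5 (right) on the vertical axis. Orange points on the right are genes whose regional difference differed between 6W and P5, and the dotted line marks equal differences.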

How the data were processed

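RNA of dissected hippocampus and prefrontal cortex was sequenced as stranded, poly(A)-selected, single-end libraries, per the labels' protocols. The deposited values are read counts per gene, made by the authors with bcl2fastq 2.20.0.422, STAR 2.4.0 and HTSeq on GRCm38, per the submitters' processing notes. Their annotation, strand setting and treatment of reads with several alignments are not given in the sources used here. Symbols and positions came from GENCODE M21 for 54809 of 54838 genes, and promoter windows from RefSeq (GRCm38.p6).

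The counts as deposited were tested with edgeR 4.0.16 (R 4.3.3, limma 3.58.1): TMM factors, the filterByExpr filter over 12 groups, estimateDisp, glmQLFit and glmQLFTest on all 48 samples, which share 1 estimate of spread with 36 residual degrees of freedom. The Benjamini-Hochberg adjustment ran over all 18849 genes that passed the filter, with 0.05 as threshold. The standard error is the size of the log2 fold change over the root of F. CPM are after TMM, with a prior count of 1 where logged. On simulated counts for this comparison (18827 genes), 200 genes above a minimum mean count were given a change, and libraries were drawn independently. Of the genes given a change of 1 log2 unit 88% were recovered, and 98% for a change of 2, and 3.63% of calls were false. The recovery does not cover genes with fewer counts, and no samples shared an animal in the simulation. No 2 replicates agreed within sampling noise in a chi-square test of their counts (13.3 to 163 per degree of freedom).

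Named genes are the 12 per direction with the largest called difference, no overlap and a mean log2 CPM of at least 4, symbols of predicted models left out; up to 4 called and 2 uncalled members of each of 36 gene lists (563 genes); all regional transcription factors; the 6 largest age differences; and Mpg. Other names are said to be chosen after their values were seen. Some genes that this rule selects are not reported here. The members and lists were chosen with earlier results of these data known. Alternatives were DESeq2 1.42.0, RLE size factors, other filters, no mitochondrial genes, only the 8 samples, the replicate number as a block, each library left out in turn, and, chosen after seeing the data, prefrontal replicates 2 and 4 left out together.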

Additional observations from a re-analysis of the deposited data

Results flagged for a closer look

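In 14 of 132 sets of 4 values examined, 1 library lay far from the other 3, where chance flags about 1 in 20 sets, or 6.6. Among single genes, Pcdh20 in prefrontal replicate 1 was at 27.8 CPM, with the other 3 between 21.3 and 21.7 CPM. Thsd4 in hippocampus replicate 1 was at 27.3 CPM, with the other 3 between 44.8 and 46.3 CPM, and Gfap in the same library at 286 CPM, with the other 3 between 142 and 167 CPM. Hippocampus replicate 1 also stood apart in the summed genes of adult neurogenesis, at 318 CPM, with the other 3 between 249.7 and 260.0 CPM, and of Wnt and BMP signalling, at 532 CPM, with the other 3 between 623 and 634 CPM. Its mitochondrial share of 31.6% was the highest of the 8, and the part of that in these values was not tested.

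Hippocampus replicate 4 stood apart in choroid plexus genes, at 1267 CPM, with the other 3 between 74.7 and 116 CPM. It did so too in the upper cortical layer list, which holds the plexus gene Enpp2, at 1294 CPM, with the other 3 between 757 and 803 CPM, and in CA3 genes, at 388 CPM, with the other 3 between 445 and 451 CPM. In prefrontal replicate 2 the CA3 genes summed to 225 CPM, with the other 3 between 250.5 and 253 CPM. Prefrontal replicate 1 stood apart in dentate granule cell genes, at 772 CPM, with the other 3 between 697 and 704 CPM, and in monoamine and acetylcholine receptors, at 736 CPM, with the other 3 between 828 and 843 CPM. Prefrontal replicate 3 did so in neuropeptide and steroid receptors, at 1029.5 CPM, with the other 3 between 934 and 949 CPM, in genes of endothelium and pericytes, at 418 CPM, with the other 3 between 453 and 458 CPM, and in septal and cholinergic genes, at 44.9 CPM, with the other 3 between 62.6 and 64.3 CPM.

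The regional difference in WT differed between 6W and P5 in 2165 genes by edgeR's test of the difference. Expressed as the log2 difference at 6W minus that at P5, it was larger toward hippocampus at 6W in Shisa6 (1.29), Pcdh20 (0.90), Tanc1 (2.13) and Thsd4 (2.71). It was more toward prefrontal cortex at 6W in Cobl (-1.09), Cckbr (-3.38), Cbln2 (-1.27), Cpne5 (-1.59), Bmp3 (-2.35), Rasgef1b (-2.33) and Tac1 (-2.49). The same held for Car12 (-3.27), Car10 (-2.73), Dusp14 (-2.64) and Ddit4l (-2.63). Without prefrontal replicates 2 and 4 the age difference of Tac1 was -1.36 and was not called (adjusted p = 0.322). That of Cobl lost its call in 3 of 15 alternatives (adjusted p up to 0.0597, without hippocampus replicate 1).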

How the results depend on the processing

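The number of genes called in WT at 6W lay between 4144 (without hippocampus replicate 1) and 4993 (without hippocampus replicate 4) when 1 library was left out. It was 5253 by DESeq2, 5073 with RLE size factors, 4644 without a filter, 4848 with a mean of at least 10 counts, 5076 without mitochondrial genes, 4621 with the 8 samples alone and 3578 without prefrontal replicates 2 and 4. A fit with a replicate block gave 4841, and 4589 with a block and the 8 samples alone. The labels number the replicates, but same-numbered samples did not as a rule deviate together (correlations of 0.103, -0.157, 0.0515 and 0.165 over 9732 genes). The largest correlations were between unlike numbers, 0.371 for hippocampus 4 with prefrontal 3 and 0.343 for hippocampus 1 with prefrontal 2. The sources used here do not say whether same-numbered samples share an animal, so the numbers were not used as pairs. With the block 12 of 22 immediate early genes were called higher in prefrontal cortex, against 6. The regional difference differed between WT and KO in 0 genes, and in 1 by DESeq2. Between 6W and 6M it differed in 0 to 1 genes with 1 library left out and in 1 by DESeq2. The positive differences between 6W and P5 numbered 639 without prefrontal replicates 2 and 4, against 959. Over 688 named or listed genes and 17 alternatives, 11119 of 11635 values kept their side of the threshold, 326 lost the call and 190 gained it. The sign differed in 221 values of 88 genes, all of them called in neither fit, and in 0 values called in either. Of 1037 list counts 51 moved by over 1.5 times, and the cause was not tested. With 21615824 to 29576938 counts per library, genes near 0.149 CPM rest on about 3 counts.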

Other observations

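Further gene families, chosen after their values were seen, give these descriptions beside the 13.1% and 13.8% of all genes called in each direction. Of 16 synaptotagmins, the calcium sensors of vesicle release, 9 were called higher in prefrontal cortex and 1 higher in hippocampus (median -0.42). Of 13 auxiliary subunits of AMPA receptors 7 were called higher in prefrontal cortex and 3, Shisa6 among them, higher in hippocampus (median -0.59). Of 6 heparan sulfate 3-O-sulfotransferases 4 were called higher in prefrontal cortex and 1 higher in hippocampus (median -1.53). Copines, which bind membranes when calcium rises, were called higher in hippocampus in 4 of 8 and higher in prefrontal cortex in 2, Cpne5 among them. Of 19 regulators of G protein signalling 8 were called higher in prefrontal cortex and 3 higher in hippocampus, of 18 leucine-rich repeat adhesion proteins 7 and 2, and of 44 collagens 7 and 2. Without prefrontal replicates 2 and 4 the G protein regulators numbered 5 and 2 and the leucine-rich repeat proteins 6 and 1. In the C1q-like and cerebellin family 1 of 7 was called in each direction. Of 17 mitochondrially encoded genes 1 was called, higher in prefrontal cortex, and 0 without prefrontal replicates 2 and 4, while the family's median was 0.18 and -0.27 without hippocampus replicate 1.

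Of the 5062 genes, 1 was called in the opposite direction in KO at 6W and 2 in WT at 6M. Myh4, a myosin heavy chain of fast muscle, was called at 1.29 in WT and -1.38 in KO at 6W, with a mean of 0.396 CPM. Cort, the precursor of the peptide cortistatin, was called at -0.82 at 6W and 0.62 at 6M, and the other gene was AA414992, with a mean of 0.0334 CPM, under the floor. At P5 there were 220 such genes, among them Dusp14 and Chodl. These genes were picked once their values were known.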
